A study of Mus musculus with 6 samples.

Results

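The genes described here are 46 lysosomal genes, a set of named symbols that holds 10 membrane and soluble cargo proteins, 20 enzymes other than cathepsins, and 16 genes of the vacuolar proton pump (V-ATPase). Each was found among the 16836 genes of the table, and all 46 passed the filter on low values, which 12118 genes passed. The lysosome is the acidic compartment in which cells break down lipids, sugars, proteins and nucleic acids. The V-ATPase acidifies it: its V1 sector in the cytosol splits ATP, and this drives protons through the V0 sector in the membrane. Macrophages digest what they engulf in this compartment, and many lysosomal genes carry a short DNA element, with CACGTG at its centre, that is bound by TFEB and its relatives.

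Polyadenylated RNA was sequenced from mouse bone marrow-derived macrophages, in 3 libraries from Ube3a-/- mice (KO) and 3 from wild-type littermates (WT). Ube3a encodes a ubiquitin ligase, and the comparison asks what its loss does to the macrophage transcriptome. No source used here gives the age or strain of the mice, the knockout allele or any treatment of the cells. Since no label ties a library to an animal of its own, a p-value here measures sample-to-sample spread only, and that spread may be technical.

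Levels are in CPM, read counts divided by the library size to which the authors scaled. The libraries held 25454862 to 35517269 reads, and a member had 187 to 107624 reads in a library. The targeted gene, Ube3a, had a level of 61.2 to 77.0 CPM among KO and 177.6 to 207.1 CPM among WT libraries, so the KO mean was 35.9% of the WT mean. All 20 core macrophage markers were in the table, and their summed level was 19210 to 22890 CPM in KO and 19300 to 22380 CPM in WT. Neutrophil markers (12 of 15 in the table, Ly6g, Retnlg and Ctsg not among them) summed to 32.4 to 48.3 CPM over all libraries. Lymphocyte markers (2 of 10) reached at most 4.38 CPM and fibroblast markers (4 of 8) at most 2.25 CPM. No gene of the erythroid list or of the mast cell and basophil list was in the table. Replicate 2 of both genotypes stood apart in Xist, the RNA that coats the inactive X chromosome of female cells, with 28 reads in KO and 14 reads in WT against 30161 to 42232 reads in the other 4 libraries. The sex of the mice is not in the labels.

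The DNA before the start of these genes shows what many of them share. RefSeq promoter windows (build GRCm38.p6, 250 bases before to 50 bases after the start) were matched by symbol for 40 of the 46 genes, in 46 windows. No window was matched for Asah1, Atp6v1b2, Atp6v1c1, Atp6v1g1, Atp6v1h or Npc1. The 6-base motif CACGTG, which reads the same on both strands, was in the windows of 12 of the 40 genes. As a share of windows that was 26.1%, against 7.15% of the 32851 windows of all promoters and 10.2% of those of the genes tested here. The 7-base motif TCACGTG, which contains it and was searched on both strands, was in the windows of the same number of genes, 12, against 3.77% of all windows and 6.16% of those of the genes tested. A longer motif of 10 bases was also searched and was in 0 of the 46 windows. It was in 0.326% of all windows and 0.737% of those of the genes tested. At shares this low, 46 windows are too few to show whether the longer motif is depleted or enriched. A match of letters is not a binding site, and the absence of one says only that these letters are not in the window.

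Below are the 150 bases before the start of 4 of the 12 genes, 5′ to 3′ on the gene's strand, with each CACGTG in capitals. They show the repeated motif in a membrane glycoprotein (Lamp1, plus strand, chr8:13159011-13159160) and the lysosomal calcium channel (Mcoln1, plus strand, chr8:3500369-3500518), a single motif in an enzyme whose genotypes did not overlap (Sgsh, minus strand, chr11:119355511-119355660), and a repeated motif in a proton-carrying subunit of the pump (Atp6v0b, minus strand, chr4:117887330-117887479).
Lamp1: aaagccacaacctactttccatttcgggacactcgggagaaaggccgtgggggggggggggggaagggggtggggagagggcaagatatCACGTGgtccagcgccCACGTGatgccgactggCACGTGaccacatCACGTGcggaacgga
Mcoln1: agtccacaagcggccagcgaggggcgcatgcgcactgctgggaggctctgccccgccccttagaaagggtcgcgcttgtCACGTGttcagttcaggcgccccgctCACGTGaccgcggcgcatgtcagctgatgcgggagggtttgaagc
Sgsh: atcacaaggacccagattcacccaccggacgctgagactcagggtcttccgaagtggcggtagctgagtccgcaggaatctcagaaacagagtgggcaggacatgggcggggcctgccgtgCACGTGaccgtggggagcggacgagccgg
Atp6v0b: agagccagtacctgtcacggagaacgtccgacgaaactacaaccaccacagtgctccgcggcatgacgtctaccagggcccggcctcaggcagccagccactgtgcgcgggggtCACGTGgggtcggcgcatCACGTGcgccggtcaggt

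Lamp1 held 4 copies, with their first bases 61, 45, 28 and 15 bases before the start. Mcoln1 held 2 copies, at 71 and 45 bases, and Atp6v0b 2 copies, at 36 and 18 bases. The other genes with the motif were the enzymes Gla, Glb1, Gaa, Naglu and Lgmn and the pump subunits Atp6v0d1, Atp6v0e and Atp6v1a. Lgmn had 1 window with the motif (chr12:102439043-102439342) and 1 without it (chr12:102439679-102439978). The last bases of the former were not found near the start of a GENCODE transcript of the gene, while those of the latter were. Of the 18 copies in all, 14 lay within 100 bases of the start. The log2 fold change, KO against WT, was positive for all 12 genes with the motif and for 23 of the 28 whose windows lacked it, with medians of 0.18 and 0.099. Within the Xist-high libraries the medians were 0.20 and 0.18, and in the Xist-low pair 6 of the 12 genes with the motif were negative, with medians of −0.0080 and −0.027. These differences were not tested, since genes are not replicates.

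Across libraries the lysosomal genes varied mostly as a block, and 1 WT library lay among the KO libraries. WT replicate 1 was the lowest of the 6 libraries for 34 of the 46 genes (73.9%), which was so for 24.6% of all genes tested. WT replicate 2 was the highest WT library for 42 of 46 (91.3%, against 38.9% of all genes tested). On the log2(CPM + 1) scale, with the mean of the 6 libraries at 0, the 46 genes averaged 0.113, 0.063 and −0.0033 over KO replicates 1, 2 and 3. The matching WT averages were −0.168, 0.10 and −0.105. WT replicates 1 and 3 lay below every KO library, while WT replicate 2 lay above KO replicates 2 and 3. These descriptions were chosen after the values were seen.

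**Figure D1:**
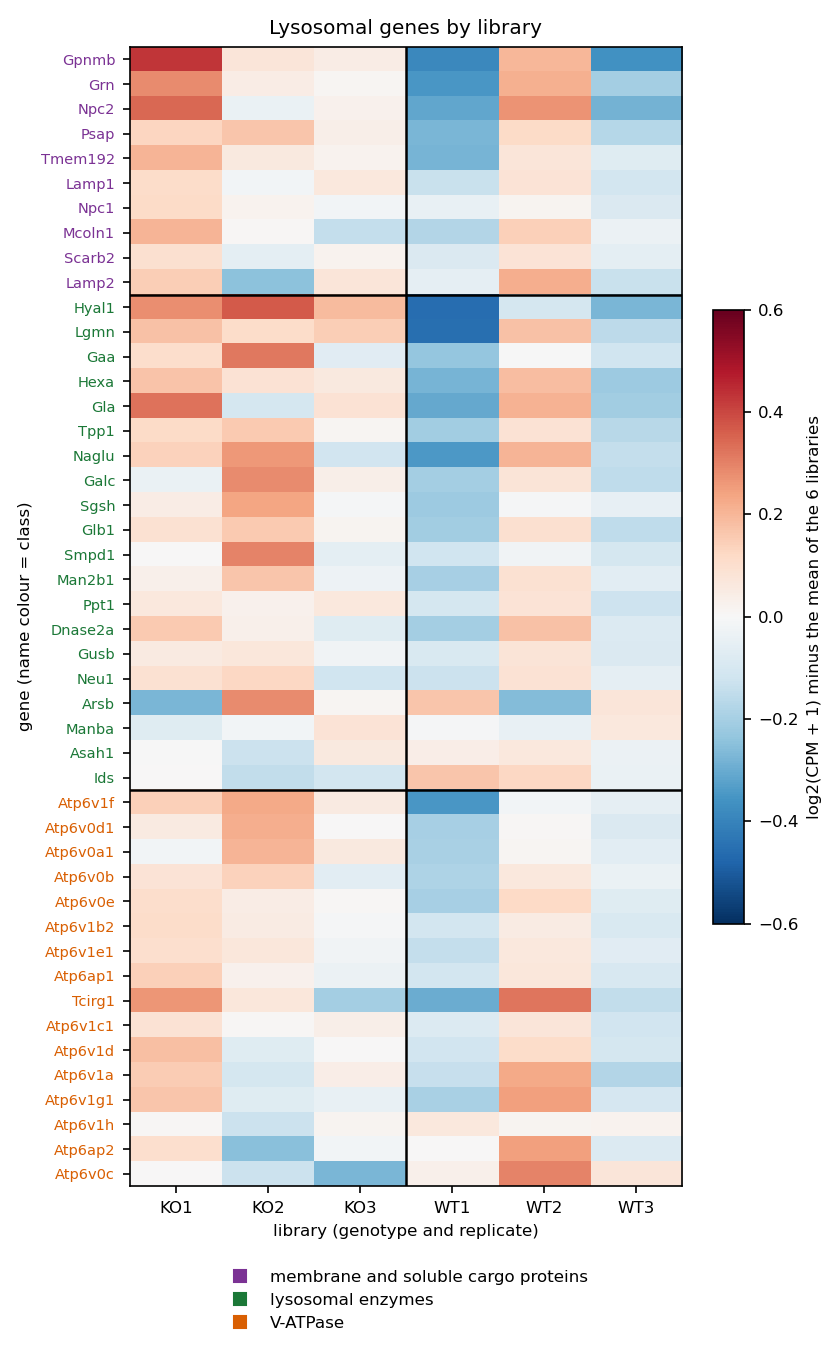
Level of each of the 46 genes (rows, grouped by class) in the 6 libraries (columns), as log2(CPM + 1) minus the gene's mean over the 6 libraries. WT1 is the lowest library for 34 of the 46 genes, and WT2 is the highest WT library for 42.

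The 3 classes differed in which library was high. Membrane and cargo genes averaged 0.206, 0.00095 and 0.013 over the KO replicates, in order, and −0.209, 0.141 and −0.151 in WT, and KO replicate 1 was the highest library for 8 of the 10. Enzyme genes averaged 0.073, 0.128 and 0.0086 in KO and −0.17, 0.065 and −0.105 in WT, and KO replicate 2 was the highest for 11 of the 20. Pump genes averaged 0.105, 0.019 and −0.028 in KO and −0.139, 0.12 and −0.076 in WT, with WT replicate 2 the highest. KO replicate 2 lay above KO replicate 1 for 13 of 20 enzyme genes, 1 of 10 membrane and cargo genes and 4 of 16 pump genes, against 49.1% of all genes tested.

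Several marker lists moved with the same libraries. Core macrophage markers averaged 0.17, 0.175 and −0.034 over the KO replicates, in order, and −0.313, 0.217 and −0.215 in WT. As for the lysosomal genes, WT replicate 1 was the lowest. The 24 interferon-stimulated genes averaged 0.992, −0.811 and 0.173 in KO and −0.753, 0.829 and −0.43 in WT, and their sum ran from 737.9 to 2607 CPM in KO and from 753.1 to 2220 CPM in WT. Their highest libraries, KO replicate 1 and WT replicate 2, were also the highest KO and the highest WT library of the membrane and cargo genes and of the pump genes. For the enzymes the highest WT library was also WT replicate 2, but the highest KO library was KO replicate 2.

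The mean of the 7 neutrophil markers that were tested ran the other way, at −0.64, 0.066 and 0.116 in KO and 0.389, −0.33 and 0.399 in WT. Of the 7, 6 had a negative log2 fold change. The exception was the most abundant, Csf3r, at 23.4, 24.9 and 20.1 CPM in KO and 13.8, 25.3 and 17.0 CPM in WT. The 6 osteoclast markers tested, a cell type whose surface carries the pump, averaged 0.165, −0.076 and −0.016 in KO and −0.417, 0.444 and −0.099 in WT. The integrin gene Itgax, the 1 dendritic cell marker tested, stood at 90.5, 58.5 and 48.6 CPM in KO and 40.9, 145.8 and 41.6 CPM in WT. Here too WT replicate 2 was the highest and WT replicate 1 the lowest library. Of the 12 stem and progenitor markers 9 were in the table and 5 were tested. The 9 summed to 263.7 to 414 CPM in KO and 364.8 to 408.4 CPM in WT, with KO replicate 2 the lowest. Most of that sum came from Spn and Ly6a, with means of 240 and 79.0 CPM over all libraries. No member is in any of these marker lists. Some of their genes are lysosomal and are also in the lists of other lysosomal genes below. These are Cd63 and Cd68 of the macrophage list and Acp5 and Atp6v0d2 of the osteoclast list. The part of the marker lists in the lysosomal levels was not tested, and in bulk RNA fewer cells of a type and less RNA per cell cannot be told apart.

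**Figure D2:**
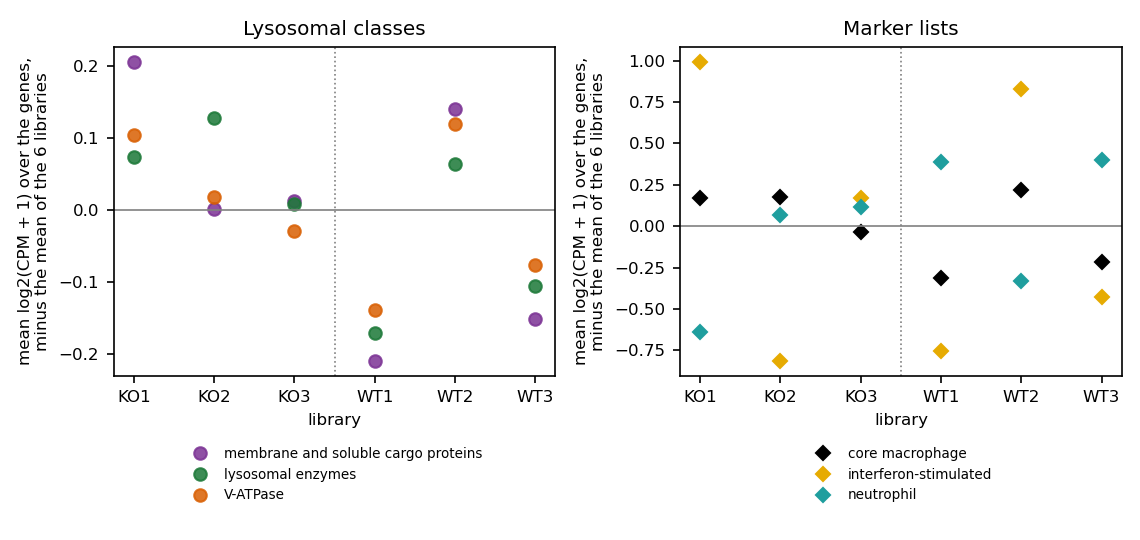
Mean log2(CPM + 1) over the genes of a list in each library, minus the mean of the 6 libraries, for the lysosomal classes (left) and for 3 marker lists (right, on a wider axis). WT1 lies lowest for each lysosomal class and for the core macrophage markers, and WT2 lies above the lowest KO library in each of these lists.

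Between genotypes, 39 of the 46 genes had a positive log2 fold change, but the differences were small and no gene passed the threshold. The median was 0.10 over the 46 genes, against 0.0015 over all genes tested, and 84.8% were positive against 50.4%. The members were chosen with earlier results of these data known. Some marker lists had larger medians: 17 of 20 core macrophage markers were positive, with a median of 0.21, and 22 of 24 interferon-stimulated genes, with a median of 0.26. Their part in the lysosomal difference was not tested. At a Benjamini-Hochberg adjusted p under 0.05, limma called 0 of the 46, with 0.0165% called among all genes tested, and limma-voom also called 0. At an unadjusted p under 0.05, limma gave 2 genes higher in KO, Hyal1 and Atp6v1f (1.68% of all genes tested), and 1 lower, Atp6v0c (2.44%), and limma-voom gave the same counts. All 3 KO values lay above all 3 WT values for 3 of the 46 genes, Hyal1, Sgsh and Atp6v1f (4.41% of all genes tested). They lay below them for 1 of the 46, Atp6v0c (5.55%). These counts without overlap lie near the background. The smallest adjusted p from limma was 0.866, for Hyal1.

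The precision was enough to bound most of the differences. For 42 of the 46 genes both bounds of the 95% interval were less than 1.5-fold from no change (91.3%, against 90.4% of all genes tested). The others were Gpnmb, Npc2, Hyal1 and Lgmn, with upper bounds of 1.71-fold, 1.53-fold, 1.77-fold and 1.53-fold. The 7 genes with a negative fold change were the membrane protein gene Lamp2, the enzymes Ids, Asah1 and Manba, and the pump genes Atp6v0c, Atp6ap2 and Atp6v1h.

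**Figure D3:**
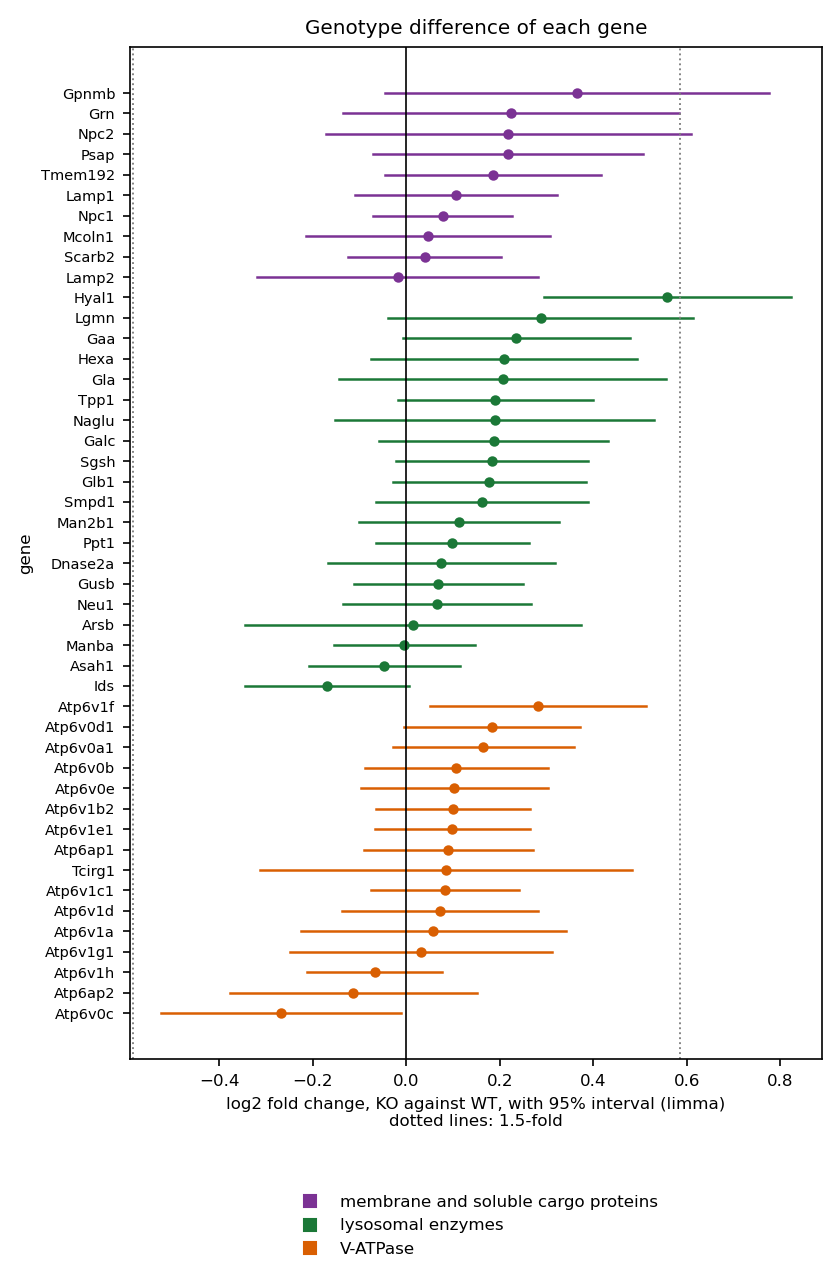
Log2 fold change of each gene, KO against WT, on log2(CPM + 1), with its 95% interval from limma (n = 3 per genotype). The dotted lines stand at 1.5-fold. Of the 46 points 39 lie to the right of 0, and 3 intervals exclude 0, those of Hyal1, Atp6v1f and Atp6v0c.

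Single libraries set the size of the class medians. The median log2 fold change was 0.15 for the membrane and cargo genes (9 of 10 positive), 0.17 for the enzymes (17 of 20) and 0.088 for the pump (13 of 16). Beside them, the SD of the class mean between libraries of one genotype was 0.155, 0.096 and 0.107. Leaving out WT replicate 1 gave medians of 0.084, 0.10 and 0.037 for these classes. Leaving out WT replicate 2 gave 0.22, 0.21 and 0.16. Without KO replicate 1 the pump median was 0.052 and the membrane and cargo median 0.090, and without KO replicate 2 the enzyme median was 0.099. Without WT replicate 3 the pump median was 0.056. They stayed positive in each of these.

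Counts at an unadjusted p under 0.05 moved further. Without WT replicate 2 limma gave 20 members higher in KO (43.5%, against 5.64% of all genes tested), and without WT replicate 1 it gave 1 (2.17%, against 0.594%). Without replicate 2 of both genotypes, the Xist-low libraries, 20 members were higher (43.5%, against 6.68%) and 1 was lower. Of all genes tested, 11.4% were under that p there, counting both directions. With the Xist-low libraries as a covariate, 9 were higher (19.6%, against 2.5%) and 1 was lower, and both directions held 6.07% of all genes tested. No member passed an adjusted p of 0.05 in limma under any of these, and the smallest adjusted p was 0.0835, for Gla, without replicate 2 of both genotypes.

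The libraries were also read apart by Xist level. Within the 4 Xist-high libraries 41 of the 46 genes were higher in KO (89.1%, against 49.8% of all genes tested), with a median difference of 0.18 on log2(CPM + 1). Within the pair of Xist-low libraries, KO replicate 2 and WT replicate 2, 20 of 46 were higher in KO (43.5%, against 49.4%), with a median of −0.050. There the membrane and cargo genes had a median of −0.13 (2 of 10 positive), the enzymes 0.044 (12 of 20) and the pump −0.071 (6 of 16). This pair has 1 library per genotype, so no test of the difference between the Xist levels was made. Of the X-linked members, Lamp2, Gla, Ids, Atp6ap1 and Atp6ap2, all 5 were lower in the KO library of this pair, with a median of −0.31, while 4 of the 5 were higher in KO within the Xist-high libraries. The X-linked members were set apart after their values were seen.

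Among the membrane proteins, Lamp1 and Lamp2 encode the heavily glycosylated proteins that line the inner face of the lysosomal membrane. Lamp1 stood at 1851, 1695 and 1793 CPM in KO and 1563, 1813 and 1590 CPM in WT. WT replicate 2 lay among the KO values, and the log2 fold change was 0.11 (95% interval −0.11 to 0.32). Lamp2, which also serves in chaperone-mediated autophagy, stood at 918.0, 699.9 and 871.3 CPM in KO and 798.6, 964.2 and 754.8 CPM in WT. KO replicate 2 was the lowest and WT replicate 2 the highest, and the log2 fold change was −0.018 (−0.32 to 0.28). Its sign rested on replicate 2: without KO replicate 2 it was 0.10, and without WT replicate 2 it was 0.086.

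Gpnmb, a membrane glycoprotein that is known as a marker of lysosomal load in macrophages, had the largest fold change of this class. It stood at 2183, 1708 and 1673 CPM in KO and 1240, 1862 and 1261 CPM in WT. WT replicates 1 and 3 were well below every KO library while WT replicate 2 was above KO replicates 2 and 3, and the log2 fold change was 0.37 (−0.045 to 0.78). Tmem192, a membrane protein often used as a tag to purify lysosomes, stood at 50.2, 45.2 and 44.1 CPM in KO and 35.6, 45.7 and 41.3 CPM in WT. Its genotypes overlapped through WT replicate 2 alone, and its log2 fold change was 0.19 (−0.045 to 0.42, limma adjusted p = 0.866). Scarb2, the receptor that carries glucocerebrosidase to the lysosome, had a log2 fold change of 0.039.

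Npc1 and Npc2 hand cholesterol out of the lysosome, and Mcoln1 releases calcium from it. Their log2 fold changes were 0.078, 0.22 and 0.046. Npc2 ranged over 1.57-fold between libraries, from 506.6 CPM in WT replicate 1 to 797.7 CPM in KO replicate 1, whereas Npc1, which works with it, ranged over 1.15-fold. The soluble precursors were Psap, which is cut into the saposins that help enzymes reach sphingolipids, and Grn, which is cut into granulins. Psap stood at 3369, 3458 and 3155 CPM in KO and 2551, 3340 and 2741 CPM in WT. WT replicate 2 again fell among the KO values, and the log2 fold changes were 0.22 for Psap (−0.071 to 0.51) and 0.22 for Grn (−0.13 to 0.58). Without the soluble proteins Npc2, Psap and Grn, the median of the class was 0.078 over 7 genes.

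Among the enzymes that break down sphingolipids, 6 of 7 were positive, with a median log2 fold change of 0.18. Hexa, the alpha subunit of beta-hexosaminidase, stood at 823.4, 775.7 and 761.1 CPM in KO and 601.8, 831.5 and 627.7 CPM in WT. WT replicate 2 was the highest of all 6 libraries and WT replicates 1 and 3 the lowest, with a log2 fold change of 0.21 (−0.075 to 0.49). Gla (alpha-galactosidase A) had a value of 0.21, Galc (galactosylceramidase) 0.19, Glb1 (beta-galactosidase) 0.18 and Smpd1 (acid sphingomyelinase) 0.16. Neu1, the sialidase, had 0.065 and Asah1, the acid ceramidase, −0.047.

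Hyal1 and Sgsh were the enzymes whose genotypes did not overlap. They are 2 of the 6 members that break down glycosaminoglycans, and the others of these overlapped. Hyal1, a hyaluronidase (chr9:107576927-107581710, plus strand, GENCODE vM21 on GRCm38), stood at 10.6, 11.4 and 9.96 CPM in KO and 5.99, 7.92 and 6.93 CPM in WT. Every KO value was above every WT value, and the means were 10.7 ± 0.708 and 6.95 ± 0.968 CPM (SD, n = 3 each). The ratio of the means was 1.53, and the log2 fold change 0.56 (0.29 to 0.82, limma adjusted p = 0.866). It had 187 to 354 reads in a library, the fewest of the 46 genes.

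The reads of Hyal1 cannot be told apart from those of its neighbour without knowing how they were counted. Its exons share 1920 bp, 50.8% of their length, on the same strand with Naa80, which encodes the enzyme that acetylates actin. Naa80 stood at 17.0, 17.5 and 13.3 CPM in KO and 10.95, 12.2 and 12.2 CPM in WT. It too did not overlap between genotypes, with a log2 fold change of 0.40 (limma adjusted p = 0.866). The summed reads of both genes came to 26.6 ± 2.92 CPM in KO and 18.7 ± 1.61 CPM in WT (SD, n = 3 each). Their log2 difference was 0.48, with an exact two-sided permutation p of 0.1, the smallest that 3 against 3 can give. Because neither gene overlapped between genotypes, this p was fixed in advance and adds no evidence. The sum was chosen after the values were seen.

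Sgsh, the heparan sulfamidase whose promoter is printed above, stood at 59.6, 68.2 and 57.5 CPM in KO and 49.4, 57.4 and 55.8 CPM in WT. KO replicate 3 and WT replicate 2 nearly met, at 57.47 and 57.44 CPM. The log2 fold change was 0.18 (−0.021 to 0.39, limma adjusted p = 0.866). In the GENCODE annotation 21.6% of its exon length lies antisense to Card14, and the strand setting of the counting is not given.

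The remaining glycosaminoglycan enzymes did not share 1 profile. Gusb, the beta-glucuronidase, stood at 957.4, 965.7 and 909.2 CPM in KO and 863.7, 971.4 and 868.2 CPM in WT. WT replicate 2 was the highest, and the log2 fold change was 0.069 (−0.11 to 0.25). Ids, the iduronate sulfatase, was the lowest enzyme by fold change, at 147.1, 132.2 and 135.9 CPM in KO and 165.0, 160.1 and 142.6 CPM in WT. KO replicates 2 and 3 lay below every WT library and KO replicate 1 above WT replicate 3, with a log2 fold change of −0.17 (−0.34 to 0.0060, limma adjusted p = 0.866). Naglu had 0.19 and Arsb 0.014, and Arsb was highest in KO replicate 2 (231.4 CPM) and lowest in KO replicate 1 (156.9 CPM), with WT between 158.3 and 212.9 CPM.

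Gaa, which releases glucose from glycogen, stood at 88.7, 102.5 and 78.4 CPM in KO and 70.0, 82.1 and 75.5 CPM in WT. KO replicates 1 and 2 lay above every WT library, and the log2 fold change was 0.24 (−0.0071 to 0.48, limma adjusted p = 0.866). The mannosidases Man2b1 and Manba had log2 fold changes of 0.11 and −0.0039. The enzymes that act on proteins, lipid-modified proteins and DNA, Lgmn, Tpp1, Ppt1 and Dnase2a, were all positive, at 0.29, 0.19, 0.099 and 0.075. Lgmn, the asparaginyl endopeptidase, was tight in KO (469.5 to 491.6 CPM) and wide in WT (318.3 to 492.4 CPM).

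In the membrane sector of the pump, V0, 5 of 6 genes were positive, with a median log2 fold change of 0.11. Atp6v0d1, a subunit that joins the ring in the membrane to the central stalk, stood at 199.9, 224.4 and 193.1 CPM in KO and 167.9, 193.8 and 181.4 CPM in WT. KO replicate 3 and WT replicate 2 crossed by less than 1 CPM, and the log2 fold change was 0.18 (−0.0042 to 0.37, limma adjusted p = 0.866). Atp6v0a1 and Tcirg1, which encode alternative a subunits through which protons pass, had log2 fold changes of 0.17 and 0.086. Tcirg1 was highest in WT replicate 2 (404.6 CPM) and KO replicate 1 (388.9 CPM), and ranged over 1.54-fold. Atp6v0b and Atp6v0e had 0.11 and 0.10.

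Atp6v0c, the main subunit of the proton-carrying ring (chr17:24163866-24169702, minus strand), went the other way. It stood at 12.4, 11.3 and 10.1 CPM in KO and 12.7, 15.5 and 13.1 CPM in WT, with every KO value below every WT value. The log2 fold change was −0.27 (−0.52 to −0.011, limma adjusted p = 0.866). Its level was the lowest of the pump, and the processed copy Atp6v0c-ps2 was listed higher, at 22.8, 21.2 and 20.5 CPM in KO and 18.6, 25.1 and 19.1 CPM in WT. Reads of such near-identical copies may be split or discarded in counting, so the level of Atp6v0c is uncertain. The summed reads of both came to 32.8 ± 2.35 CPM over KO and 34.7 ± 5.14 CPM over WT libraries (SD, n = 3 each), a log2 difference of −0.072 (exact two-sided permutation p = 0.7), a sum chosen after the values were seen.

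In the cytosolic sector, V1, 7 of 8 genes were positive, with a median log2 fold change of 0.078. Atp6v1f, a small subunit of the rotor stalk (chr6:29467718-29470512, plus strand), stood at 52.1, 55.4 and 49.0 CPM in KO and 36.8, 46.5 and 45.4 CPM in WT. Every KO value was above every WT value, and WT replicate 1 was the lowest by a wide margin. The log2 fold change was 0.28 (0.051 to 0.51, limma adjusted p = 0.866). Atp6v1a, the subunit that splits ATP, stood at 825.2, 690.2 and 762.6 CPM in KO and 673.4, 870.5 and 656.6 CPM in WT. WT replicate 2 was the highest library and WT replicates 1 and 3 the lowest, with a log2 fold change of 0.058 (−0.23 to 0.34) that was −0.0038 without KO replicate 1 and −0.016 without WT replicate 3. Atp6v1b2, its partner in the catalytic ring, had 0.10, and Atp6v1h, a regulatory subunit, −0.067. The other 4 V1 genes, Atp6v1c1, Atp6v1d, Atp6v1e1 and Atp6v1g1, lay between 0.032 and 0.098.

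The accessory proteins Atp6ap1 and Atp6ap2, which help to assemble V0, had opposite signs. Atp6ap1 stood at 491.6, 454.0 and 435.4 CPM in KO and 413.2, 467.0 and 417.1 CPM in WT, with WT replicate 2 among the KO values and a log2 fold change of 0.090 (−0.090 to 0.27). Atp6ap2 had −0.11 (−0.38 to 0.15), with KO replicate 2 the lowest library (237.6 CPM) and WT replicate 2 the highest (336.2 CPM).

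**Figure D4:**
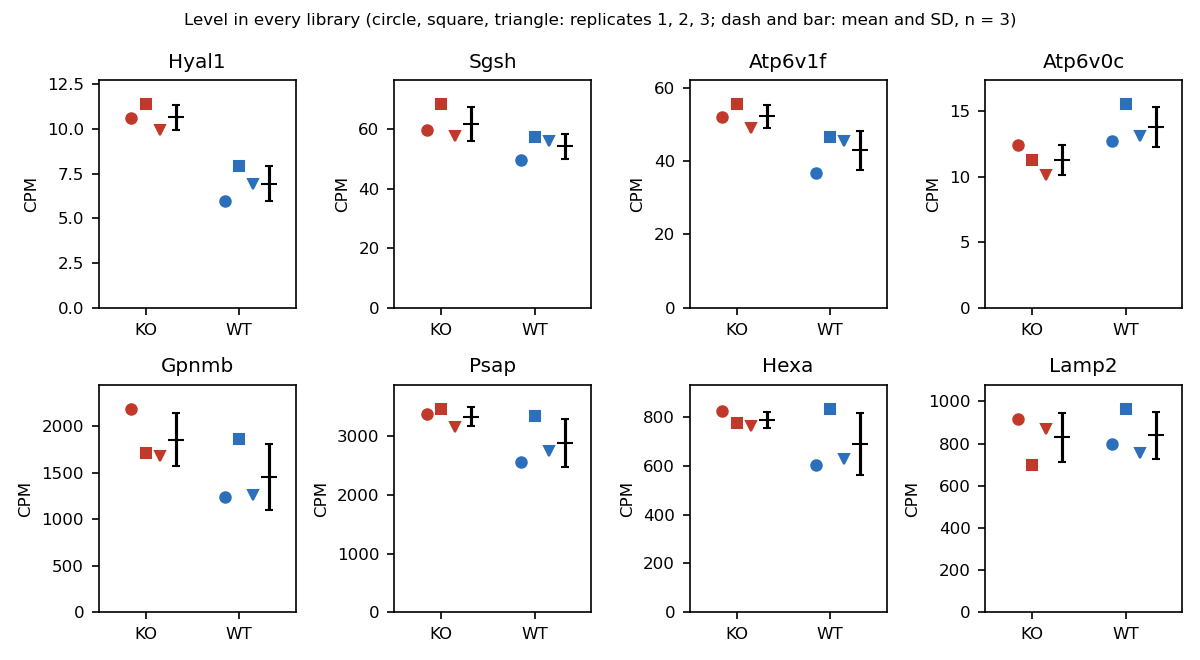
CPM of 8 of the genes in every library (circle, square and triangle for replicates 1, 2 and 3, KO red and WT blue), with the mean and SD of each genotype (n = 3). Hyal1, Sgsh and Atp6v1f lie higher in every KO library and Atp6v0c lower, while in Gpnmb, Psap, Hexa and Lamp2 the square of WT replicate 2 lies among or above the KO values.

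Levels of different genes were compared as CPM per kb of exon. The length is that of all annotated exons of a gene, merged over its transcripts. It may exceed the length of the transcripts present, so orders between genes hold for this measure only. Psap was the highest of the 46, at 1131 ± 135 CPM per kb (SD over 6 libraries), followed by Lamp1 at 642 ± 45.3 and Grn at 580 ± 94.5, whose ranges over libraries overlapped. The highest enzymes were Hexa (369 ± 49.4), Gusb (203 ± 10.8) and Lgmn (190 ± 30.7), and the lowest was Hyal1 (2.33 ± 0.574). Gpnmb stood between Hexa and Gusb at 254 ± 55.4 CPM per kb. Gusb and Lgmn did not differ beyond their spread.

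Within the pump the order was Atp6ap1 (148 ± 10.04 CPM per kb), Atp6v1a (123 ± 14.5), Atp6ap2 (109 ± 12.7), Atp6v0d1 (108 ± 10.6), Atp6v0b (92.8 ± 7.56) and Atp6v1b2 (86.0 ± 5.16). The ranges over libraries of neighbours in this order overlapped. The catalytic partners Atp6v1a and Atp6v1b2 stood at a ratio of 1.28 to 1.62 per kb in every library. At the low end were Atp6v1d (22.0 ± 1.91), Atp6v1h (12.2 ± 0.545) and Atp6v0c (3.70 ± 0.542). Atp6v0c encodes a subunit that occurs many times in each ring and was nonetheless the lowest, with the limit on its counting given above.

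**Figure D5:**
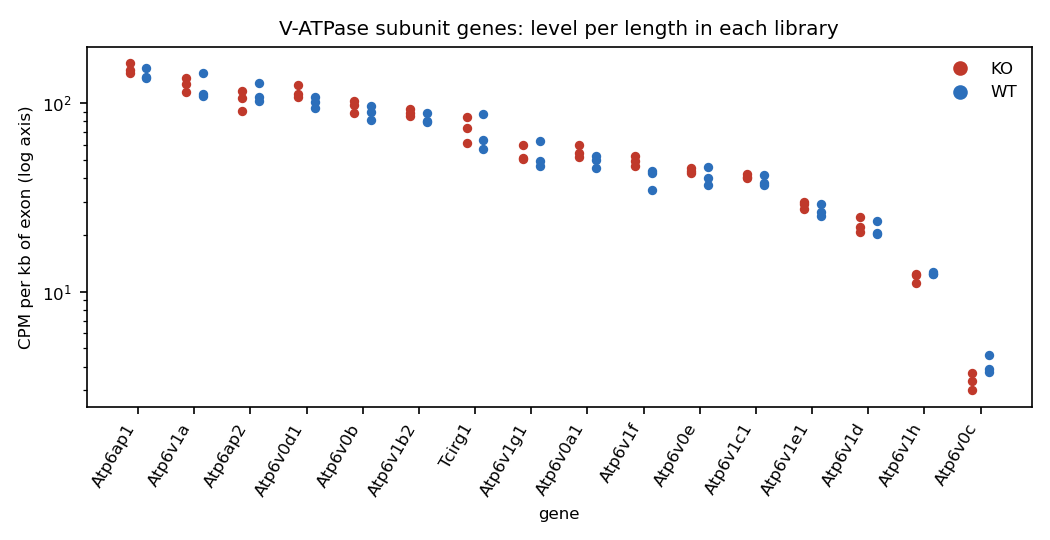
Level of the 16 pump genes in CPM per kb of exon on a log axis, ordered by level, with 1 point per library (KO red, WT blue). Atp6ap1 and Atp6v1a are the highest and Atp6v0c, whose reads may be shared with a processed copy, is the lowest.

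Subunits with several isoforms differ between tissues. Atp6v0a1 stood at 0.771 ± 0.144 times the level of Tcirg1 per kb in KO and 0.727 ± 0.111 times in WT (SD, n = 3 each). Both a isoforms were thus present, at similar levels by this measure, which depends on the annotated exon lengths. Atp6v0a1 stood at 5.56 ± 0.557 times Atp6v0a2 in KO and 4.79 ± 0.570 times in WT, ranges that overlapped. Atp6v0d1 stood at 70.9 to 189 times Atp6v0d2, the d isoform of osteoclasts, over the 6 libraries. The isoforms Atp6v0a4, Atp6v1b1, Atp6v1c2, Atp6v1e2 and Atp6v1g3 were looked up and were not among the genes of the table.

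Other lysosomal genes were read from the same fit, in lists drawn up from textbook knowledge but with earlier results of these data known. Of 31 other enzymes and activators 26 were positive, with a median log2 fold change of 0.096, and of 30 other membrane proteins 22, with a median of 0.10. Of 13 other pump isoforms and assembly factors tested 5 were positive (median −0.015), of 13 genes for sorting enzymes to lysosomes 8 (0.044), and of 18 genes of the TFEB family and of the lysosomal platform of the growth kinase mTORC1 11 (0.038). limma called none of these genes at an adjusted p under 0.05, and at an unadjusted p under 0.05 it gave 1 higher and 2 lower. Over all genes tested those shares were 1.68% and 2.44%, so the counts lie near the background.

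The higher gene was Rragd, a Rag GTPase that recruits mTORC1 and a known target of TFEB's family, at 6.76, 5.11 and 5.40 CPM in KO and 2.497, 5.62 and 2.36 CPM in WT. WT replicate 2 lay among the KO values and WT replicates 1 and 3 below them, with a log2 fold change of 0.65 (0.066 to 1.24). The lower genes were Mitf, a relative of TFEB, with −0.18, and Slc38a9, the arginine sensor of the lysosomal membrane, with −0.15. Mitf stood at 64.1, 60.4 and 64.2 CPM in KO and 76.3, 69.0 and 69.1 CPM in WT, with no overlap. Slc38a9 stood at 32.1, 32.6 and 32.9 CPM in KO and 35.3, 38.4 and 35.4 CPM in WT, also with no overlap. Of the other genes with the smallest p in their list, the enzyme genes Scpep1 and Man2b2 had log2 fold changes of 0.20 and 0.23. The cystine exporter Ctns had 0.20, the sorting adaptors Gga2 and Gga3 had 0.18 and 0.094, and the pump-associated Tmem9 and Wdr7 had 0.13 and 0.090.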

How the data were processed

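Polyadenylated RNA was sequenced in 6 libraries, 3 KO and 3 WT, grouped by their labels. RNA was isolated with a Direct-zol kit and libraries were made with a KAPA mRNA kit, per the labels' protocols. The submitters' processing notes name Cufflinks, FastQC 0.11.15, HTSeq 0.11.0, HISAT2 2.1.0 and Trimmomatic 0.36. No source used here gives their roles, the genome build, the annotation or the strand setting.

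The authors deposited log2 CPM per gene and library (CPM per the file headers), with the decimal marks of larger values lost. The marks were restored from the fact that the values correspond to whole reads, and 100% of the values came out within 1e-06 of a whole number, for all 16836 genes. In each library 791 to 856 values allowed another placement of the mark, and there the only placement that gave whole reads was taken. 1 read was worth 0.0277 to 0.0400 CPM. limma-voom on these reads gave p-values within a relative gap of 5.27e-08 of the authors' deposited p-values. The deposited fold changes were not used. CPM were recomputed from the recovered reads and the library sizes to which the authors had scaled.

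The 12118 genes that reached 1 CPM in 3 or more libraries were fitted as log2(CPM + 1) with limma 3.58.1 (eBayes with a trend, genotype as the only term) in R 4.3.3. Tests were two-sided with Benjamini-Hochberg adjustment over all genes tested, and intervals are at the 95% level. Fold changes of low genes are understated on this scale. The fit was also run on simulated data in which each gene varied independently. That run does not cover genes that vary as a block between libraries, and no result here rests on it. The alternatives were limma-voom, the deposited values, another pseudocount, no filter, other scalings, the replicate number as a block, the Xist-low libraries as a covariate or left out, and each library left out in turn.

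The members and lists were chosen with earlier results of these data known. Values per library are given for members that pass the threshold or whose genotypes do not overlap. They are also given, in each class, for the 3 with the smallest p, the 2 with the highest CPM per kb, and the 1 with the highest and the 1 with the lowest fold change. Exon lengths, positions and overlaps come from GENCODE vM21 on GRCm38, and promoters from RefSeq on GRCm38.p6. No pair of libraries of the same genotype agreed within sampling noise, so none were merged.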

Additional observations from a re-analysis of the deposited data

How the results depend on the processing

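No member passed an adjusted p of 0.05 in any alternative. The 3 class medians stayed positive in every alternative run, and without each replicate in turn they ranged from 0.084 to 0.22 (membrane and cargo), 0.099 to 0.21 (enzymes) and 0.037 to 0.16 (pump). Scaling, pseudocount, filter and voom moved them by less than 0.01. Members higher at an unadjusted p under 0.05 numbered 3 without the filter (1.9% of all genes fitted) and 4 when libraries were centred on the median gene (2.05%). Without each replicate in turn the log2 fold change ranged from −0.096 to 0.10 for Lamp2 and from −0.016 to 0.19 for Atp6v1a. Members with a positive log2 fold change, 39 of 46, numbered 35 without KO replicate 1 (pump 9 of 16), 35 without WT replicate 1 (pump 11 of 16) and 41 without KO replicate 2. Among the 16 members given by library, directions turned for Lamp2 (0.20 without replicate 2 of both genotypes, 0.10 without KO replicate 2 and 0.086 without WT replicate 2) and for Atp6v1a (−0.0038 without KO replicate 1 and −0.016 without WT replicate 3); the cause was not tested. With the replicate number as a block, 0 members passed, and 5 were higher (10.9%, against 1.72% of all genes tested) and 0 lower at an unadjusted p under 0.05. Both directions held 4.08% of all genes tested. Same-numbered libraries correlated at −0.216, −0.134 and 0.14 in their deviations from the group means. No KO library correlated best with the WT library of its own number, so the numbers were not taken to pair the samples. With 3 libraries per genotype such correlations are a weak guide, and replicate 2 was Xist-low in both genotypes. The labels do not say whether the number marks a shared litter or day. With 3 libraries per genotype, differences smaller than the intervals given could not be resolved. The genome build and strand setting behind the counts are unknown, which limits genes that overlap others, and intervals cover no error of counting rules.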

Other observations

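The 24 S phase genes, a list for dividing cells, were all tested. Their sum stood at 3183 to 3472 CPM in KO and 3426 to 3585 CPM in WT, and 4 of the 24 had a positive log2 fold change, with a median of −0.072. None passed an unadjusted p under 0.05 in limma. The gelatinase gene Mmp9, the most variable of the osteoclast markers named here, stood at 29.8, 19.0 and 12.5 CPM in KO and 3.94, 46.9 and 8.98 CPM in WT. It was lowest in WT replicate 1 and highest in WT replicate 2.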
